A study of Caenorhabditis elegans with 2 samples.

Results

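The nuclear genes for the proteins of the mitochondrial ribosome were described in a chromatin immunoprecipitation sequencing (ChIP-seq) experiment on UNC-30, a homeodomain transcription factor of the D-type motor neurons of Caenorhabditis elegans. The genes were taken as all protein-coding genes of the WBcel235 annotation whose symbols begin with mrpl- (large subunit) or mrps- (small subunit). This rule, which uses no measured value but was chosen with earlier results of these data known, gave 70 genes. They were 41 mrpl- and 29 mrps- genes of 19973 nuclear protein-coding genes. The remaining 19903 genes served for comparison. The single group is whole L1 larvae of mixed sex of strain OP395, which carries the mutation unc-119(tm4063) on chromosome III and wgIs395, a stably expressed transgene for UNC-30 with GFP and FLAG tags at its C terminus. The antibody is labelled unc-30, the chromatin was sheared by sonication, and all animals of both libraries carry the transgene beside any UNC-30 of their own. The group's 2 libraries are biological replicates 1 and 2, and no library of another strain, stage or condition was analysed here. UNC-30 is made in few cells of a larva, and no control sample was analysed here, so regions that depend on UNC-30 and regions that any immunoprecipitation from these larvae would give cannot be told apart.

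The mitochondrial ribosome translates the few proteins of the respiratory chain and ATP synthase that mitochondrial DNA encodes. Its RNAs come from mitochondrial DNA, while its proteins are encoded in the nucleus, made in the cytosol and imported. In C. elegans many housekeeping genes lie in operons, runs of closely spaced genes on 1 strand that are transcribed from a promoter in front of the first gene. The promoter of a gene inside such a run can therefore lie several genes upstream of it.

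Each deposited list gives candidate regions, true peaks mixed with background, each with a summit and a signal value, the authors' measure of peak height. The pooled list, made by the authors from both replicates, and the list of each replicate hold 30000 regions each. The peaks that passed the authors' IDR threshold (irreproducible discovery rate) are the regions of highest signal in the pooled list, and their number is the first of the 4 depths at which genes were counted, called the thresholded depth here. Signal fell to 39.2 at that depth, 25.3 at rank 1000 and 18.9 at rank 5000 of the pooled list, and its lowest value was 10.7. Its scale is not stated and no list holds read counts, so library depth is unknown and signals are set against each other only within a list. A gene was said to have a promoter region when a summit lay between 2000 bp upstream and 500 bp downstream of its annotated 5′ end, and its best region was the one of highest signal. Ranks count nuclear regions.

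The stretches from 100 bp before to 100 bp after the summits of 6 of the 7 genes with a pooled region among the highest 1000 are shown because the strongest results turn on them. They were read from the RefSeq sequence of WBcel235 (ce11), 5′ to 3′ on the strand of the gene, with positions counted from 1. Capitals mark 6 motifs on either strand, which the next paragraph spells out, and some of these matches overlap. All 6 stretches lie outside annotated exons.
mrpl-28 (chrII:156070-156270, minus strand): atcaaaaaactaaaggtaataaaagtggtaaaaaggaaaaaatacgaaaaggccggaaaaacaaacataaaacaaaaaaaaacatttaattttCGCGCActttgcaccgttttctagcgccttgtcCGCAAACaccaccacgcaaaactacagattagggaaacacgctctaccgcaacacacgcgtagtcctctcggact
mrpl-55 (chrIV:443700-443900, plus strand): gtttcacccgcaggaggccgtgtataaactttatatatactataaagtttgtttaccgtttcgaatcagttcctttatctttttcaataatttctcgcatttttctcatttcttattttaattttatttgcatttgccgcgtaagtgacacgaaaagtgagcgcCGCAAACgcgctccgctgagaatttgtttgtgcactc
mrpl-45 (chrIII:1202293-1202493, minus strand): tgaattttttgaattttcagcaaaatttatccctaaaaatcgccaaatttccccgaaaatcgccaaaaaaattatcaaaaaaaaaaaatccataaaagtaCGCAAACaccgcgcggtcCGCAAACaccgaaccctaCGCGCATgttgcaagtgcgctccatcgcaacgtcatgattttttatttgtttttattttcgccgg
mrpl-48 (chrV:5592384-5592584, plus strand): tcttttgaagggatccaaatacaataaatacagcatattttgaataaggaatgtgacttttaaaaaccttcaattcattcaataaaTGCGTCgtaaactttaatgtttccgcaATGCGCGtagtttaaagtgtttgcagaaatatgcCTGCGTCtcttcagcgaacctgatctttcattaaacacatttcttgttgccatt
mrpl-12 (chrIII:10707204-10707404, plus strand): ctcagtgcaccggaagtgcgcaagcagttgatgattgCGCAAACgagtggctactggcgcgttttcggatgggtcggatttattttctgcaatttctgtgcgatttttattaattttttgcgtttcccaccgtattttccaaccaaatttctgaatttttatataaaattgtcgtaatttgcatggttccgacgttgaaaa
mrps-12 (chrV:20837646-20837846, plus strand): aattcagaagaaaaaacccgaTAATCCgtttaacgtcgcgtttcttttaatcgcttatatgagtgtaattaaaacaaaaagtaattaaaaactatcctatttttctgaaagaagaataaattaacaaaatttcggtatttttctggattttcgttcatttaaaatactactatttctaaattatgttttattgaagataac

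TAATCC is the core recognised by bicoid-type homeodomains such as that of UNC-30. It was in none of the windows of the 4 highest genes (mrpl-28, mrpl-55, mrpl-45 and mrpl-48) and in 1 of those of the 7 genes among the highest 1000, that of mrps-12, 410 bp upstream of its 5′ end. The core was rare at the summits of the other genes too, at 2.31% at the thresholded depth and 7.75% among the highest 1000. Of all pooled regions to these depths, 12.8% and 11.5% held it. An earlier look at these data had singled out ATGCGC along with GACGCA, then CGCGCA together with ACGCAG, and these were searched too. CGCGCA was found at mrpl-28, mrpl-45 and mrpl-48, overlapping ATGCGC at the last 2 genes. GACGCA occurred 2 times at mrpl-48, overlapping ACGCAG at 1 place. CGCAAAC was picked out after the windows had been read and is a description only. It stood on the gene strand 132 bp upstream of mrpl-28, 118 bp upstream of mrpl-55, 517 bp upstream of mrpl-12 and, in 2 copies, 382 and 364 bp upstream of mrpl-45.

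mrpl-28 had the highest promoter region of all mitochondrial ribosomal protein genes. It encodes a protein of the large subunit and lies on the minus strand of chromosome II (154881 to 156009). Its pooled region (chrII:155992-156347) had rank 35 and a signal of 63.4, with the summit 161 bp upstream. Its −log10 q of 2.01 equals the highest value in the list, and whether other regions share that value was not counted. Replicate 1 held a summit 25 bp from it at rank 35 with a signal of 38.4 and replicate 2 a summit 18 bp from it at rank 264 with a signal of 19.6. The region was intergenic and lay in the promoter of no other protein-coding gene. mrpl-28 was the only member whose best pooled region had a q-value below 0.05 (1.43% of members, 0.286% of the other genes).

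mrpl-55, for a large-subunit protein known from animals, came next at rank 71 with a pooled signal of 45.0. Its intergenic region (chrIV:443622-443977) had its summit 185 bp upstream of the gene and a −log10 q of 0.919. The replicate summits lay 2 bp away at rank 76 (signal 30.2) in replicate 1 and 92 bp away at rank 551 (signal 17.6) in replicate 2. The same summit falls in the promoter window of dpm-1, a subunit gene of dolichol-phosphate-mannose synthase on the same strand, but the 5′ end of mrpl-55 is the nearest. mrpl-28 and mrpl-55 were thus the members with a region among the highest 1000 of both replicates.

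mrpl-45, whose human counterpart sits at the exit of the nascent chain and holds the ribosome to the inner membrane, had rank 74 and a pooled signal of 44.4. The region (chrIII:1202215-1202570, −log10 q 0.937) had its summit 385 bp upstream of mrpl-45, and the nearest 5′ end was that of the divergent gene Y119D3B.12. Replicate 1 placed a summit 7 bp away at rank 115 (signal 27.1), and replicate 2 one 46 bp away at rank 5726 (signal 11.5). The replicates agreed on the place and not on the rank.

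mrpl-48, another large-subunit gene, was just inside the thresholded depth at rank 123 with a pooled signal of 39.4 and a −log10 q of 0.682. The summit (region chrV:5592306-5592661) lay 1222 bp upstream of mrpl-48, beyond the gene vps-37, which ends 93 bp before mrpl-48 on the same strand. vps-37 encodes a subunit of the ESCRT-I complex of endosomal sorting, and the summit was 216 bp upstream of its 5′ end. Ranks were 141 in replicate 1 (signal 25.5) and 2192 in replicate 2 (signal 14.0). The next member of the order, mrpl-12, had rank 703, so no member lay close below that depth.

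3 more members had a pooled region among the highest 1000. mrpl-12 encodes the protein of the flexible stalk of the large subunit and had rank 703 with a signal of 26.9 (region chrIII:10707126-10707481, −log10 q 0.102). Its summit, 457 bp upstream, is shared with the divergent genes Y39A1A.21 and Y39A1A.22. Replicate 2 had a summit 43 bp away at rank 60 with a signal of 24.6, while replicate 1 had none within 100 bp and its own best region, 861 bp upstream, at rank 1804.

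mrps-12, for a protein of the decoding centre of the small subunit, was the highest small-subunit gene at rank 740 with a signal of 26.6 (region chrV:20837568-20837923, summit 334 bp upstream, −log10 q 0.0999). The region also lies in the promoter of exos-7, a subunit gene of the RNA exosome on the same strand. Replicate 2 had its matching summit at rank 13281 (signal 9.05), and in replicate 1 the best region had its summit 444 bp upstream at rank 2377 (signal 13.9), more than 100 bp from the pooled one. The highest small-subunit region thus rested on replicate summits of lower rank.

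mrpl-15, a large-subunit gene on chromosome I, closed the highest 1000 at rank 886 with a signal of 25.9 (region chrI:1435558-1435913, summit 543 bp upstream, −log10 q 0.0667). Replicate 1 had this place at rank 326 (signal 20.4) and replicate 2 at rank 23325 (signal 7.24). It shares the region with no other gene. mrpl-9 stood just outside, at rank 1410 with a signal of 23.8.

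**Figure D1:**
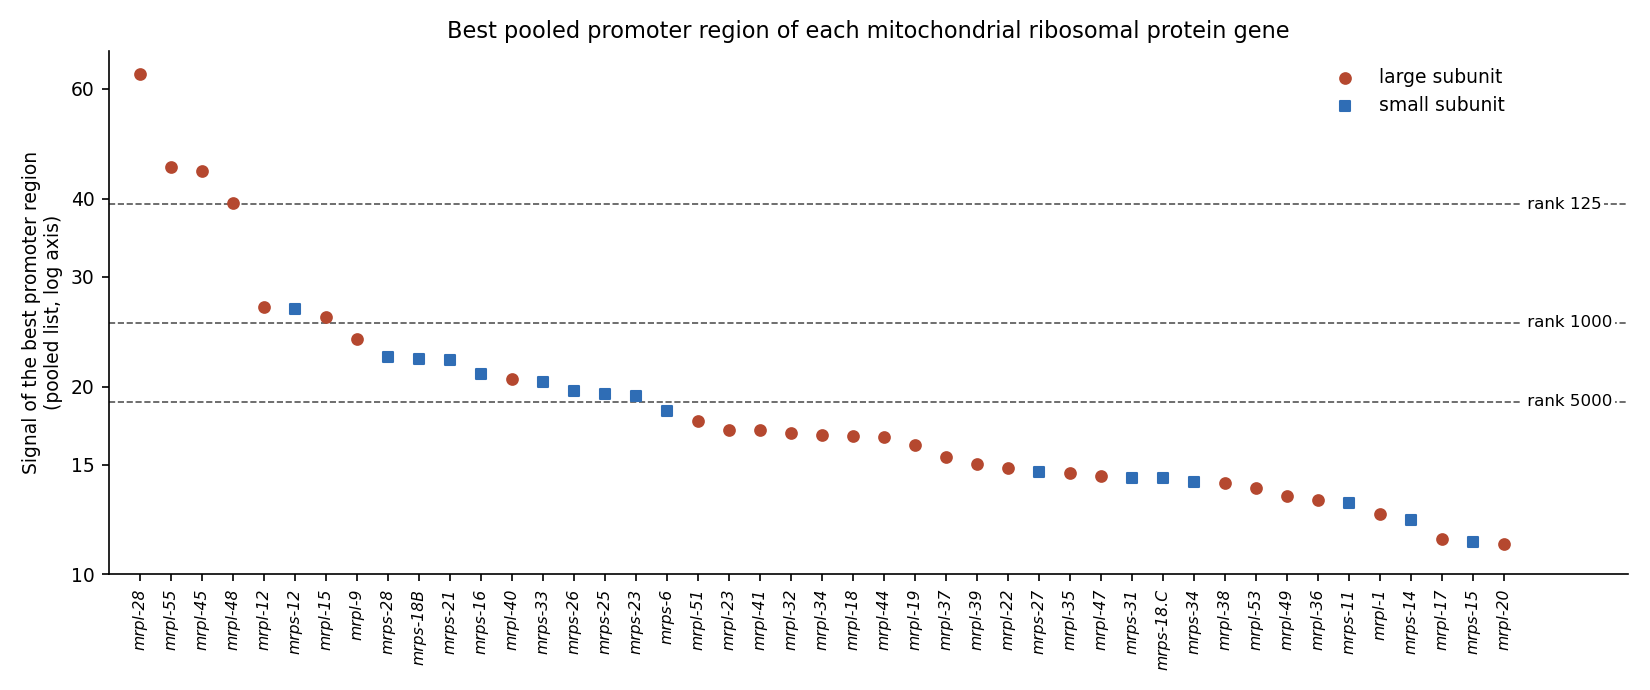
Signal of the best promoter region in the pooled list (vertical log axis, the authors' scale) for the 45 mrpl- and mrps- genes that have one, in order of rank, with dashed lines at the signals of the thresholded depth and of ranks 1000 and 5000. The 4 genes above the uppermost line all belong to the large subunit, a gap separates mrpl-48 at 39.4 from mrpl-12 at 26.9, and most genes sit between 11.2 and 20.9.

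Below these 7, the next members in order were mrpl-9, mrps-28, mrps-18B, mrps-21, mrps-16 and mrpl-40, at pooled ranks 1410 to 3218. The summit of mrpl-9 lay in an intron of kin-3, the catalytic subunit gene of casein kinase II on the other strand, whose 5′ end is the nearest. mrps-28 (signal 22.3, chrV:19642875-19643230, summit 1186 bp upstream in an intron of Y43F8C.7) had matching summits at rank 3674 in replicate 1 and 11469 in replicate 2. mrps-18B (signal 22.1, chrII:8525409-8525764, summit 94 bp upstream) shares it with prp-9, a splicing factor gene on the other strand, and had no matching summit in either replicate. The pooled list can thus place a region where neither replicate list has one within 100 bp.

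mrps-16 had the strongest disagreement among the small-subunit genes. Its pooled region had rank 2990 and a signal of 20.9, replicate 2 had a summit 58 bp from it at rank 80 with a signal of 23.6, and replicate 1 had its own best region at rank 11566 with a signal of 9.38, its summit 1742 bp upstream. mrpl-38 showed the reverse, with rank 838 in replicate 1, rank 22293 at another place in replicate 2 and rank 15588 in the pooled list. mrpl-40 was even, with rank 1200 in replicate 1, rank 1319 in replicate 2 and rank 3218 in the pooled list, although the 2 replicate summits lay 1144 and 686 bp upstream.

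**Figure D2:**
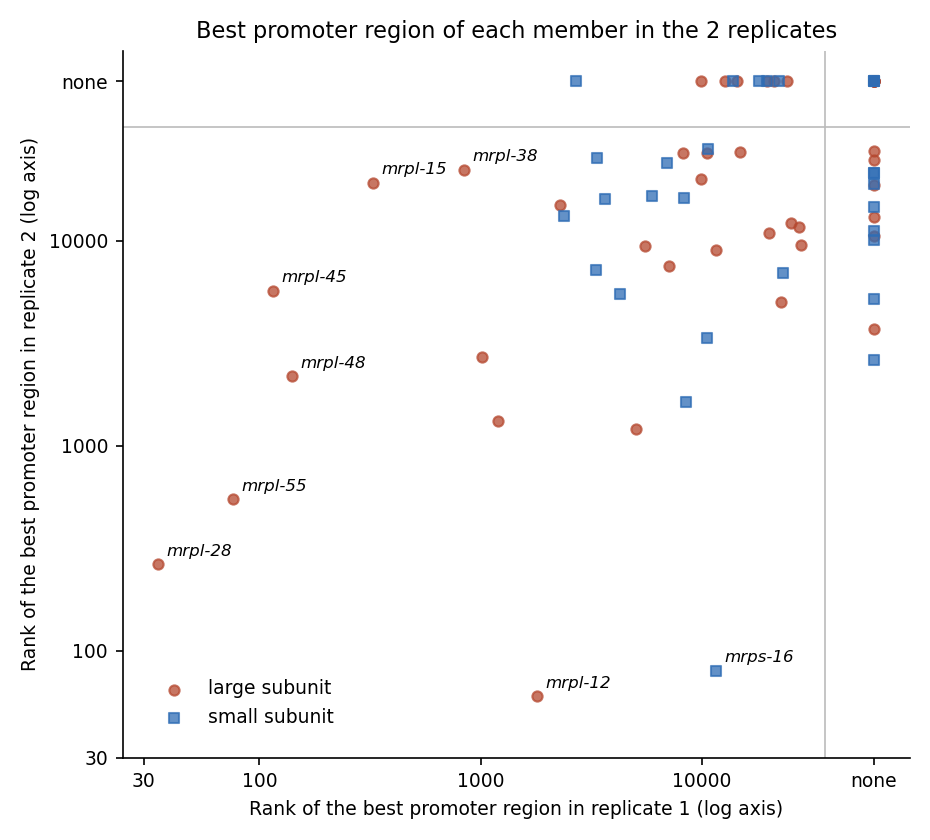
Rank of the best promoter region of each of the 70 genes in replicate 1 (horizontal) and replicate 2 (vertical), both on log axes, with genes that have no region placed at "none" and genes among the highest 1000 of either replicate named. mrpl-28 and mrpl-55 are high in both replicates, mrpl-45, mrpl-48, mrpl-15 and mrpl-38 mainly in replicate 1, and mrpl-12 and mrps-16 mainly in replicate 2.

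Counted over all 70 genes, 4 had a region in the pooled list at the thresholded depth, or 5.71% (95% Wilson interval 2.24 to 13.8), against 0.653% of all other protein-coding genes. Among the highest 1000 there were 7, or 10% (4.93 to 19.2), against 3.95% of the others. Among the highest 5000 there were 17, or 24.3% (15.8 to 35.5), against 14.1%. With all 30000 regions 45 had one, or 64.3% (52.6 to 74.5), against 56.3%. The share of members lay above that of the others at each depth, by the widest ratio at the top. The intervals cover counting error over genes only and are no test, since the genes are no replicates and neighbours share regions.

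In the lists of both replicates the members' share was also above that of the others at each depth. In replicate 1, 3 members (4.29%) had a region at the same depth against 0.558% of the others, 6 (8.57%) among the highest 1000 against 3.83%, 16 (22.9%) among the highest 5000 against 14.3%, and 47 (67.1%) in the whole list against 56.3%. In replicate 2 the counts were 2 (2.86%) against 0.523%, 4 (5.71%) against 3.29%, 12 (17.1%) against 13.7%, and 50 (71.4%) against 56.2%. The 3 members of replicate 1 at the thresholded depth were mrpl-28, mrpl-55 and mrpl-45, and the 2 of replicate 2 were mrpl-12 and mrps-16. No member was in both at that depth, and only 0.166% of the others were. At 1000 regions mrpl-28 and mrpl-55 were in both replicates (2.86% of members, 0.759% of the others). At 5000 regions mrpl-40, mrpl-12, mrpl-51 and mrpl-48 joined them (8.57% and 3.93%), and in the whole lists 36 members had a region in both (51.4% and 36.5%). These counts take a region anywhere in the promoter window and not at the same place. The replicate summits lay 1144 and 686 bp upstream for mrpl-40, 861 and 414 bp for mrpl-12, and 1791 and 1668 bp for mrpl-51. Those of mrpl-28, mrpl-55 and mrpl-48 lay within 100 bp of the pooled summit.

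**Figure D3:**
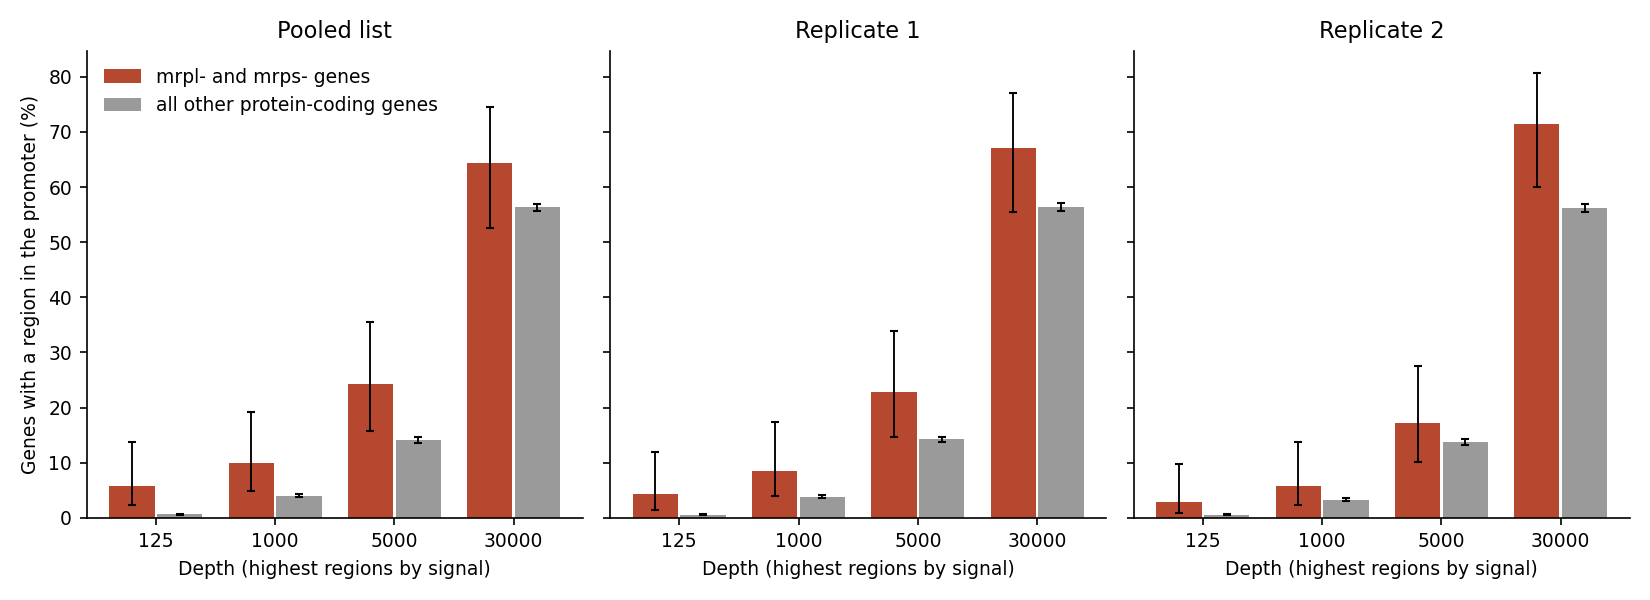
Percent of genes with a promoter region at the thresholded depth and among the highest 1000, 5000 and 30000 regions of the pooled list, replicate 1 and replicate 2, for the 70 mrpl- and mrps- genes (left bars) and the 19903 other protein-coding genes (right bars), with 95% Wilson intervals. The left bars are higher at each depth in each list, and the interval of the members holds the share of the others at 30000 regions in the pooled list and replicate 1 and at 1000 and 5000 regions in replicate 2.

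The counts of the large and small subunits lay apart at the top of the list. At the thresholded depth of the pooled list there were 4 of 41 mrpl- genes (9.76%) and 0 of 29 mrps- genes, against 0.653% of the other genes. Among the highest 1000 there were 6 (14.6%) and 1 (3.45%), against 3.95%, so the small subunit lay near the other genes there. Among the highest 5000 there were 8 mrpl- genes (19.5%) and 9 mrps- genes (31.0%), against 14.1%. In the whole list there were 28 (68.3%) and 17 (58.6%), against 56.3%. In replicate 1 the counts were 3 and 0 at the thresholded depth, 6 and 0 among the highest 1000, and 10 (24.4%) and 6 (20.7%) among the highest 5000. In replicate 2 they were 1 (2.44%) and 1 (3.45%), 3 and 1, and 8 (19.5%) and 4 (13.8%). The shares of the other genes at these 3 depths were 0.558%, 3.83% and 14.3% in replicate 1 and 0.523%, 3.29% and 13.7% in replicate 2. The share of the small subunit was thus the higher one at 5000 regions in the pooled list. In replicate 2 it was higher at the thresholded depth and in the whole list (72.4% against 70.7% of mrpl- genes). It was the lower one elsewhere, with 62.1% against 70.7% in the whole list of replicate 1. The difference between the subunits was not tested. For the small subunit, 0 of 29 genes in the pooled list at the thresholded depth allows a share of up to 11.7% by the Wilson interval.

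8 members (11.4%) had no promoter region in any of the 3 lists, against 21.3% of the other genes. They were the large-subunit genes mrpl-2, mrpl-11, mrpl-16, mrpl-24 and mrpl-50 and the small-subunit genes mrps-9, mrps-10 and mrps-22. All 8 may still lie below the lowest signal that a list of 30000 regions holds.

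At the pooled summits the replicates agreed for few members beyond the top. Of the 45 members with a pooled region, 7 (15.6%) had a summit within 100 bp in both replicates, 19 (42.2%) in replicate 1 alone, 12 (26.7%) in replicate 2 alone and 7 (15.6%) in neither. Among the other genes with a pooled region, both replicates had one for 19.1%, replicate 1 alone for 31.8%, replicate 2 alone for 30.7% and neither for 18.4%. The 4 members at the thresholded depth all had both (88.5% of the other genes there), and so had 5 of the 7 among the highest 1000 (69.1%) and 7 of the 17 among the highest 5000 (41.2% and 48.2%). The order of members and others depends on the distance allowed, since both replicates had a summit within 200 bp for 16 members (35.6% against 29.0%) and within 50 bp for 5 (11.1% each). Across the 36 members with a region in both replicates, the best signals of replicates 1 and 2 gave Pearson's r of 0.389 and Spearman's rho of 0.261 (0.355 and 0.156 over 7266 other genes), a description over genes, some of which share regions.

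The signals and positions of the 45 best regions were as follows. Their median pooled signal was 16.7 (quartiles 14.3 and 20.9), against 15.3 (12.9 and 18.9) for the other genes with a region. The median summit lay 385 bp upstream of the 5′ end, against 660 bp for the others. 17 members (37.8%) had the summit 1 to 500 bp upstream, 20 (44.4%) farther upstream and 8 (17.8%) within 500 bp downstream, against 25.9%, 56.8% and 17.3% of the others. By annotation 23 of the 45 summits were intergenic (51.1% against 54.7%), 9 in coding exons (20% against 15.5%) and 8 in introns (17.8% against 20.9%). A further 3 were in 3′ UTRs (6.67% against 3.65%) and 2 in 5′ UTRs (4.44% against 3.43%). All 7 summits among the highest 1000 were intergenic (72.2% of the others there).

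Shared promoters were common. For 29 of the 45 genes (64.4%) the best summit also lay in the promoter window of at least 1 other protein-coding gene, against 39.2% of the other genes. Conversely, the member's own 5′ end was the nearest for 29 (64.4%, others 72.2%). When each region was given to its nearest 5′ end alone, the members at the thresholded depth were 2, mrpl-28 and mrpl-55, or 2.86% against 0.367% of the others, and those among the highest 1000 were 4, or 5.71% against 2.56%. Farther down the shares lay close together, with 8 members (11.4% against 10.1%) among the highest 5000 and 32 (45.7% against 43.9%) in the whole list. As examples chosen after their values were seen, mrpl-49 (rank 17943) shares its region with rpl-28 of the cytosolic ribosome and mrps-15 (rank 27197) with asg-1, a subunit gene of ATP synthase. mrps-6 (rank 5896) shares its region with rpn-8, a proteasome subunit gene, and mrpl-1 (rank 21388) with nhr-8, a nuclear receptor gene.

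No mitochondrial ribosomal protein gene is on chromosome X, which holds 13.7% of the other genes, and 22 of the 70 (31.4%) are on chromosome III, which holds 13.2%. Chromosome III also has the highest share of other genes with a region among the highest 1000, 6.11%, while 2 of its 22 members (mrpl-45 and mrpl-12) had one. Against the other autosomal genes alone, the shares to set beside 5.71% and 10% were 0.716% and 4.14%.

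Many members lie close behind another gene. Of the 70, 34 (48.6%) had a protein-coding gene on the same strand ending within 1000 bp upstream of their own start, against 29.4% of the others, and 20 (28.6%) had one within 200 bp, against 10.1%. Of these 34 members, 18 (52.9%) had a pooled promoter region, against 54.1% of the other genes so placed. Of the 36 members with no such neighbour, 27 (75%) had one, against 57.2%. The subunits differed here, with 47.4% of mrpl- genes with a close neighbour and 86.4% of those without. For mrps- genes the shares were 60% and 57.1%. Among the highest 1000 the counts were 2 of 34 (5.88%, against 3.45% of the other genes so placed) and 5 of 36 (13.9%, against 4.16% of the other genes with no close neighbour).

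The promoter in front of a run was therefore examined too, a choice made after the data had been seen. The first gene was found by stepping upstream through same-strand gaps of at most 1000 bp, and operons themselves are not annotated in the files used. mrpl-53 lies 4 steps behind tag-124, whose best region had rank 117 and a signal of 39.8 with the summit 46 bp upstream, while the best region at mrpl-53 itself had rank 16564. mrpl-32 follows rpn-3, a proteasome lid subunit gene, whose region had rank 128 (signal 38.7, 164 bp upstream), against rank 8250 at mrpl-32. mrps-11 follows W04D2.4, with rank 358 (signal 30.5), against rank 19242 at mrps-11. The first genes of these runs thus had regions far up the list where the members had low ones.

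For 3 members with no pooled region of their own, the first gene had one among the highest 1000. mrpl-30 follows W04B5.5 (rank 467, summit 3 bp upstream), mrpl-54 follows clsp-1, the claspin gene (rank 472, 199 bp upstream), and mrpl-46 follows ech-5, an enoyl-CoA hydratase gene (rank 948, 4 bp upstream). mrpl-38 follows spd-1, a spindle midzone gene, at rank 1197. The reverse also occurred, since mrps-12 (rank 740) and mrps-16 (rank 2990) had regions while num-1 and clr-1 in front of them had none, and mrps-26 (rank 4105) was higher than atp-2, the ATP synthase beta subunit gene 2 steps in front (rank 21094). mrps-2 and mrpl-4 lie in the same run behind natc-1 (rank 21529).

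Counted at the first gene of the run, or at the gene itself where it has no close neighbour, 5 members (7.14%) had a region at the thresholded depth, against 0.794% of the others counted the same way. Among the highest 1000 there were 12 (17.1% against 4.71%), of which 11 were mrpl- genes. Among the highest 5000 there were 24 (34.3% against 15.5%) and in the whole list 53 (75.7% against 57.8%). These counts are larger than those at the genes' own 5′ ends for the members and, by less, for the other genes.

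**Figure D4:**
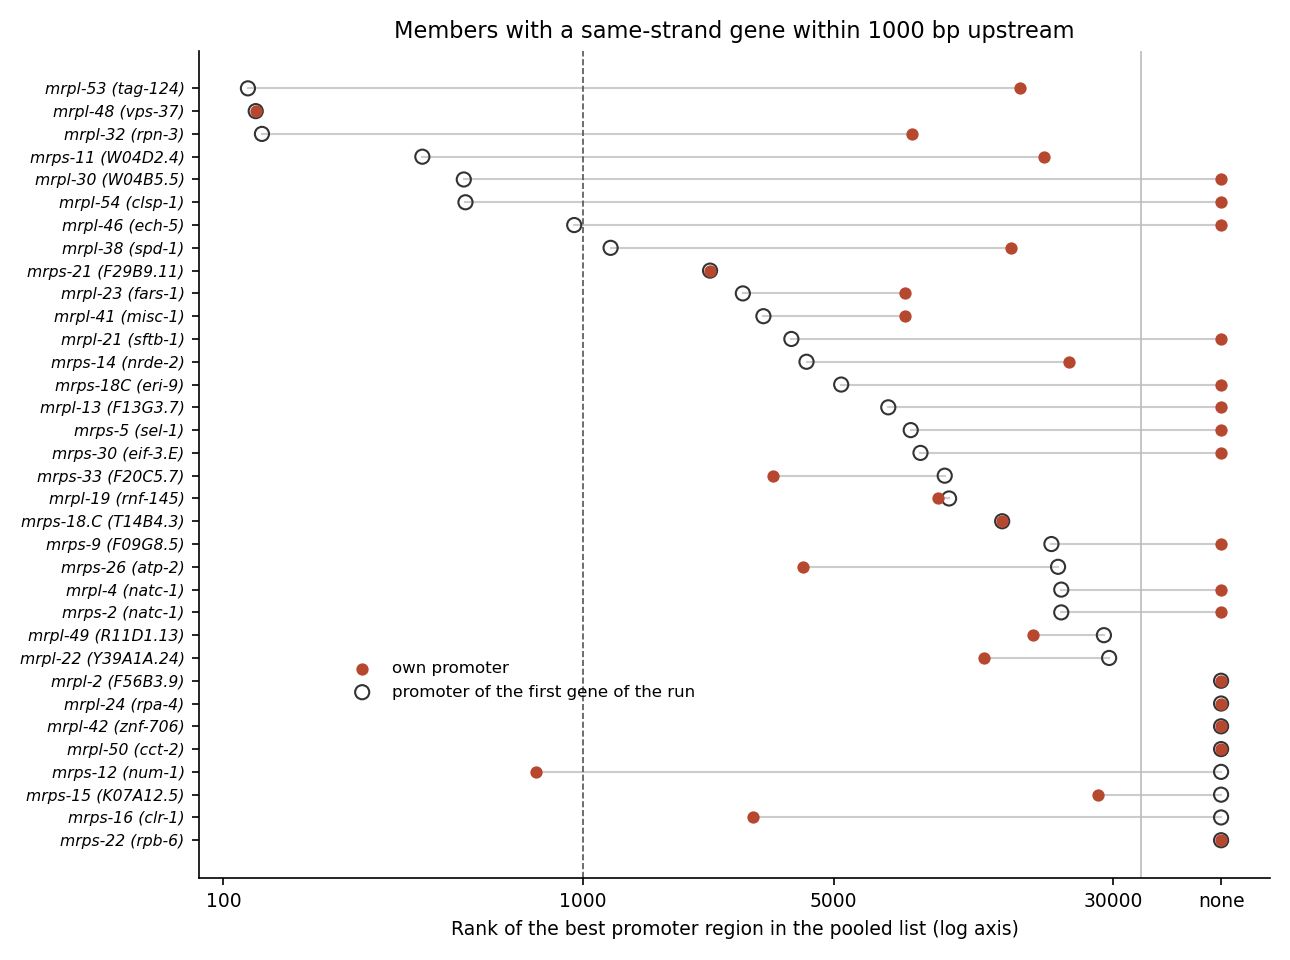
Pooled rank (log axis) of the best promoter region at the member itself (filled) and at the first gene of its run (open, gene in brackets) for the 34 members with a same-strand gene within 1000 bp upstream, in order of the first gene's rank, with the dashed line at rank 1000. For mrpl-53, mrpl-32, mrps-11, mrpl-30, mrpl-54 and mrpl-46 the first gene lies left of the line and the member does not, and for mrps-12 the member does and the first gene has no region.

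The letters at the summits were counted for all members. TAATCC was within 100 bp of the best summit of 6 of 45 members (13.3%: mrps-12, mrps-26, mrpl-51, mrps-31, mrps-34 and mrps-15), against 7.05% of the other genes with a region and 7.18% of all 30000 pooled regions. In the stretch from 250 bp before to 50 bp after the 5′ end it was found for 2 of 70 members (2.86%: mrpl-23 and mrpl-10), against 9.40% of the others. CGCGCA was at 3 of the 4 summits at the thresholded depth, against 19.2% of the other genes there, and at 4 of 45 in all (8.89% against 3.82%). ATGCGC was at 2 of the 4 (26.9%), and GACGCA and ACGCAG each at 1 (23.8% and 25.4%). Since these motifs had been singled out in an earlier look at these data, the counts are not independent of that choice. Those of CGCGCA and ATGCGC are not separate either, because their matches overlap at mrpl-45 and mrpl-48. Over all 30000 pooled regions CGCGCA was at 2.65%, ATGCGC at 2.79%, GACGCA at 3.30% and ACGCAG at 3.35% of the summits.

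CGCAAAC was at 3 of the 4 summits at the thresholded depth and at 4 of the 7 among the highest 1000 (57.1%), against 5.38% and 3.94% of the other genes. Of all 45 summits 5 held it (11.1% against 1.73%), the fifth being that of mrpl-49. Over all pooled regions it was at 4.80% of those at the thresholded depth and 1.42% of the 30000. In the stretch from 250 bp before to 50 bp after the 5′ end, 8 of 70 members held it (11.4%), against 3.06% of the others, and 2 of these 8, mrpl-28 and mrpl-55, held the copies that had been read at their summits. Since the motif was chosen from the windows of the highest members, all these counts describe that choice and none is independent of it.

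Each 6-mer was counted together with its complementary strand, which gives 2080 pairs. In the same stretch, the widest differences in share were in letters rich in A and T. The 6-mer ATTAAA was in 78.6% of member promoters against 46.6% of the others, AATAAA in 85.7% against 61.4%, AAATAA in 85.7% against 62.8%, TTAAAA in 81.4% against 59.0% and TATTAA in 45.7% against 26.9%. The median G+C share of the stretch was 32.3% for members and 34.3% for the others. At the summits the order was the other way, with a median G+C of 35.3% for the 45 members and 32.3% for the other genes with a region. Members were also higher among the highest 1000 (38.3% against 34.8%) and 5000 (35.3% against 33.3%). At the thresholded depth they were not, with 38.1% for the 4 members and 38.8% for the others.

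Other genes that serve the same or the neighbouring machinery were counted by the same rule. The shares of the 19903 genes outside the mitochondrial set were 0.653%, 3.95%, 14.1% and 56.3% at the 4 depths of the pooled list. Of the 78 genes of the cytosolic ribosome, 7 (8.97%) had a region at the thresholded depth, 27 (34.6%) among the highest 1000 and 55 (70.5%) in the whole list, beside 5.71%, 10% and 64.3% of the mitochondrial set. The highest was rpl-3 at rank 7. Of 24 genes for mitochondrial DNA maintenance, transcription, aminoacyl-tRNA synthesis and translation factors, 0 were among the highest 1000 (up to 13.8% by the Wilson interval), 5 (20.8%) among the highest 5000 and 16 (66.7%) in the whole list. dap-3, whose human counterpart is a small-subunit protein without an mrps- symbol here, had no pooled region. Of 26 genes for import into and folding in mitochondria, 2 (7.69%) were at the thresholded depth, 6 (23.1%) among the highest 1000 and 19 (73.1%) in the whole list. The 2 were hsp-60, the chaperonin gene, at rank 15 and ddp-1, a small import chaperone gene, at rank 66, followed by tomm-20 of the outer membrane receptor at rank 161. In replicates 1 and 2 the ranks were 30 and 31 for hsp-60, 56 and 8957 for ddp-1, and 168 and 1947 for tomm-20. The highest 1000 of replicates 1 and 2 held 21 (26.9%) and 13 (16.7%) of the 78 genes. They held 1 (4.17%) and 0 of the 24 and 3 (11.5%) and 4 (15.4%) of the 26, against 3.83% and 3.29% of the other genes.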

How the data were processed

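UNC-30 ChIP-seq regions of 2 biological replicates were analysed. Per the labels' file lists, the authors deposited candidate regions (peaks and background) for each replicate, a list made from both replicates, and peaks thresholded by IDR, in ce11 and ce10; the ce11 lists were used. The deposited signal is the authors' peak height on a scale not stated. The deposited −log10 q-values follow the narrowPeak format. Aligner, caller, settings, control and IDR cutoff were not given in the sources used here, and library depth is unknown. The thresholded list holds 125 peaks, the first depth, and each other list 30000. Regions were ranked by signal, without the 10 mitochondrial regions of replicate 2, and assigned to the 5′ ends of genes of Ensembl release 115 with Python 3.11.15 and numpy 2.4.6. The assignment was tested on simulated regions. Sequences came from RefSeq's WBcel235.

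Members and lists were chosen with earlier results of these data known. Of the 33 and 27 symbols written for the mitochondrial gene expression list and the import and folding list, 24 and 26 were found in the annotation. Genes named are all members among the highest 1000 pooled regions with their partners, the members next to ranks 125 and 1000, members with no region, and members high in 1 replicate. First genes of runs and members named for their partners were chosen after their values were seen. With 1 group no test was made: shares carry 95% Wilson intervals. Alternatives were other windows, the nearest 5′ end, all transcripts, any overlap, each replicate alone and autosomes.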

Additional observations from a re-analysis of the deposited data

How the results depend on the processing

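The counts of members were 4, 7, 17 and 45 at the thresholded depth and among the highest 1000, 5000 and 30000 pooled regions. With a window of 500 bp to each side they were 3, 5, 9 and 32, against 0.397%, 2.12%, 6.75% and 30.5% of the other genes. With each region given to its nearest 5′ end alone they were 2, 4, 8 and 32, against 0.367%, 2.56%, 10.1% and 43.9% of the other genes, so that the members' shares of 11.4% and 45.7% at the 2 lower depths were close to the background. Without replicate 1 (replicate 2's own list) the counts were 2, 4, 12 and 50, and without replicate 2 they were 3, 6, 16 and 47, so that the ranges over the 2 replicates were 2 to 3, 4 to 6, 12 to 16 and 47 to 50. Replicate 2 at the thresholded depth held 0 of the pooled list's 4 members and its highest 1000 held 3 of 7. The promoter of the first gene of the run was also added, a choice made after seeing the data. For gaps to 1000 bp the counts at 1000 and 5000 regions were then 13 and 28 (18.6% and 40% of members, 5.38% and 17.8% of the others). For gaps to 200 bp they were 10 and 22 (14.3% and 31.4% of members, 4.55% and 15.6% of the others). Agreement of both replicates was found for 16 of 45 members with summits within 200 bp (35.6%, others 29.0%), for 7 within 100 bp (15.6%, others 19.1%) and for 5 within 50 bp (11.1%, others 11.1%). TAATCC moved to 2 of 45 members within 50 bp of the summit (4.44% against 3.81%). In all 38 of the alternative values stayed within 1.5 times the value reported and 10 did not, and for the 4 counts the members' share was above that of the others in each setting run. The causes were not tested. No paired analysis was possible because the study has 1 group. The 2 libraries and the unknown depth limit every rank, and the thresholded depth rests on the authors' pooling.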
